A study of Mus musculus with 18 samples.

Results

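The 9 genes described here are 7 that code for effectors and regulators of dopamine receptor signalling in both kinds of striatal projection neuron, Ppp1r1b, Gnal, Gng7, Adcy5, Pde10a, Rgs9 and Rasd2, and 2 that code for transcription factors of these neurons, Bcl11b and Foxp1. They were chosen by name and known role, with no threshold on a measured value, and each symbol was matched to 1 Ensembl identifier. All 9 of 9 had enough counts to be tested, among 17545 genes tested of 38561 counted. The RNA sequencing data comprise 18 libraries of adult mice, with 3 libraries of WT and 3 of Pcm1-/- (KO) littermates in each of 3 regions: striatum, hippocampus and frontal cortex. The strain of all mice is labelled C57 Bl6J. The KO mice carry a gene-trap insertion in Pcm1 from a single embryonic stem cell line, in every cell and not in a chosen cell type, and were backcrossed for a few generations. Pcm1 codes for a protein of the centriolar satellites around the base of the cilium. The 3 regions were taken from the same 3 animals of each genotype.

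Striatal projection neurons make up most of the neurons of the striatum. One kind, of the direct pathway, carries the D1 dopamine receptor, and the other, of the indirect pathway, carries the D2 receptor. D1 receptors raise cAMP through a G protein made of the alpha subunit Golf (Gnal) and a gamma subunit (Gng7), which turn on the adenylyl cyclase Adcy5, whereas D2 receptors lower it. Protein kinase A, driven by cAMP, phosphorylates DARPP-32 (Ppp1r1b), which then blocks protein phosphatase 1. Pde10a breaks down cAMP and cGMP, Rgs9 speeds the shut-off of G proteins of the Gi/o class, and Rasd2 (Rhes) is a small GTP-binding protein that dampens Golf and receptor signalling. Bcl11b (Ctip2) and Foxp1 are transcription factors needed for projection neurons to mature.

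Libraries held from 24950537 to 33405081 counts on genes, and levels are given as CPM, counts scaled to the size of the library with TMM factors. Pcm1 itself was at 150 to 172 CPM in the WT striatum and at 16.0 to 17.6 CPM in the KO striatum. It fell in all 3 regions, by 3.29 to 3.51 on the log2 scale, with the largest adjusted p at 2.34e-06 by the quasi-likelihood test of edgeR. Marker lists set the libraries labelled striatum apart from those of both other regions, and no list specific to the hippocampus or to the frontal cortex was used. The summed level of 8 direct pathway markers was 859 to 1095 CPM in the WT striatum against 126 to 132 CPM in the WT frontal cortex and 75.3 to 79.5 CPM in the WT hippocampus, and that of 8 markers of cortical and hippocampal glutamatergic neurons was 51.8 to 125 against 2777 to 2862 and 2251 to 2825 CPM. In each group 1 library held 2988 to 4306 counts on 4 Y-linked genes and the other libraries at most 5. WT striatum replicate 3, which is such a library, stood apart in another way: 6 choroid plexus and ependyma markers summed to 5896 CPM in it, against 48.7 and 60.7 CPM in the other WT striatum libraries and 34.8 to 174 CPM in the KO striatum. In bulk tissue, fewer cells of a type and less RNA per cell cannot be told apart.

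To show where transcription of these genes begins, the 250 bases before the annotated start sites of RefSeq (GRCm38.p6) were searched on both strands for 5 short motifs. Windows are reported for 7 of the 9 genes, 11 windows in all, since Foxp1 has 3 start sites there and Gng7 and Pde10a a pair each. The 4 windows shown are those without an annotated exon base, and that of Pde10a precedes its second start site and lies within the gene. Capitals mark a GC box (GGGCGG) or, in Rgs9 alone, also a TATA box (letters TATAAA), on either strand.
Rgs9, chr11:109298182-109298431, minus strand: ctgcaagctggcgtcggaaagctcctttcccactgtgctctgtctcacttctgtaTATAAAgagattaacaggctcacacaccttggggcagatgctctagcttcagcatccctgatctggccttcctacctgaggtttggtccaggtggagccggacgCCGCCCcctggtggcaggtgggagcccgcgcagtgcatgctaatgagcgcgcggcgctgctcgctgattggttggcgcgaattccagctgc
Adcy5, chr16:35154614-35154863, plus strand: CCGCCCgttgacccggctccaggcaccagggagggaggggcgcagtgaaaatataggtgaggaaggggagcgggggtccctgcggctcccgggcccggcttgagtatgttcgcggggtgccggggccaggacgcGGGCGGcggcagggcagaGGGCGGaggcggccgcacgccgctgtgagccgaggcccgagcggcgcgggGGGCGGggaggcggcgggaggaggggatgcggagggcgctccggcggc
Pde10a, chr17:8849735-8849984, plus strand: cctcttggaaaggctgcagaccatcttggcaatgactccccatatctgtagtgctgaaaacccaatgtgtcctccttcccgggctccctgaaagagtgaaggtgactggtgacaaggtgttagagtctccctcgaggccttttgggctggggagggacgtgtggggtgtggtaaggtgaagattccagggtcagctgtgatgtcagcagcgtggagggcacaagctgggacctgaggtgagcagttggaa
Rasd2, chr8:75213694-75213943, plus strand: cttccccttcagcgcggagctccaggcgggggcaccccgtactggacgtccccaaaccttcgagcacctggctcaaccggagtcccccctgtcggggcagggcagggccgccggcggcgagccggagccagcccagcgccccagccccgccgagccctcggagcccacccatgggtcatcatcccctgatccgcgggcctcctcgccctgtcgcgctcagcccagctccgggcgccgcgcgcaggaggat

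Adcy5 held 4 copies of GGGCGG in a window with 78.0% G and C, and Rgs9 held 1 copy and a TATAAA. The windows of Rasd2 and of the second Pde10a start site held none of the motifs searched. Among all 11 windows, GGGCGG was in 6, TGTTTA (the core of forkhead sites) in 3, TGACG (the short form of the cAMP response element, contained in TGACGTCA) in 2, TATAAA in 1 and TGACGTCA in 0. In all 32851 mouse windows of this length the shares were 32.7% for GGGCGG, 12.03% for TGTTTA, 17.8% for TGACG, 12.4% for TATAAA and 1.55% for TGACGTCA. The 3 windows with TGTTTA were the 3 start sites of Foxp1, itself a forkhead factor. A match is only a match of letters, and windows of 1 gene are not independent.

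All 9 genes were higher in the striatum than in the frontal cortex and than in the hippocampus, in WT and in KO mice. Their enrichment ran from 3.16-fold for Foxp1 to 65.4-fold for Rgs9 over the WT frontal cortex, and from 2.28-fold for Bcl11b to 60.5-fold for Rgs9 over the WT hippocampus. In each of these 4 comparisons all 9 passed the test (edgeR, adjusted p at most 3.69e-05) and their 3 striatal libraries lay above all 3 of the other region. Among all genes tested, 20.6% were called higher in the WT striatum than in the WT frontal cortex, 14.4% higher than in the WT hippocampus, and 27.2% and 21.9% in the same comparisons of KO mice. The median log2 difference of the 9 genes was 3.29 between WT striatum and WT frontal cortex, beside 0.02 over all genes tested. Enrichment of these genes in the striatum is textbook knowledge. The regions come from the same animals, and a fit with the animal as a block called the same number of members in these 4 comparisons.

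**Figure D1:**
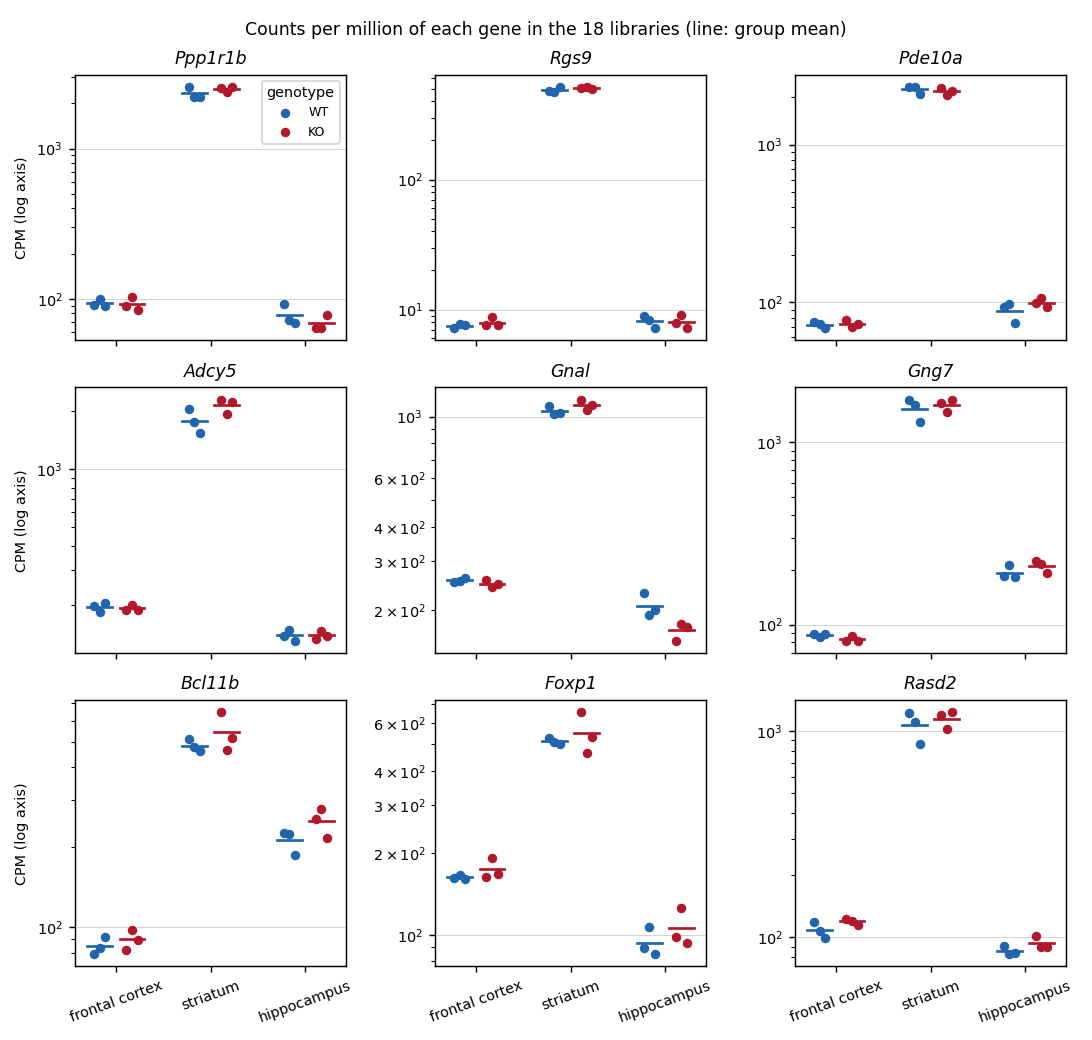
CPM (log axis) of each of the 9 genes in the 18 libraries, by region and genotype (WT blue, KO red), with a line at each group mean. The striatal points lie above those of both other regions for each gene, while WT and KO points overlap except for Gnal in the hippocampus.

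Ppp1r1b (chromosome 11, 98348404 to 98357796 of GRCm38, plus strand) codes for DARPP-32, the inhibitor that joins dopamine and glutamate signals. It was at 2583, 2203 and 2213 CPM in the 3 WT striatum libraries. The WT frontal cortex libraries were at 91.3, 100.2 and 89.2 CPM and the WT hippocampus libraries at 93.0, 72.5 and 69.0 CPM. Striatal libraries stood far above the others, by 4.64 ± 0.141 (log2 difference ± SE) over the frontal cortex and by 4.91 ± 0.143 over the hippocampus. Frontal cortex and hippocampus did not pass the test between each other in WT mice (0.26 ± 0.123, edgeR adjusted p = 0.135).

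Of the genes that raise cAMP, Gng7 had the largest enrichment over the frontal cortex, followed by Adcy5 and Gnal. Gng7 (chromosome 10, 80948624 to 81014945, minus strand), the gamma subunit that is needed for Golf to assemble in the striatum, was at 1696, 1595 and 1283 CPM in the WT striatum, at 89.2, 86.1 and 89.2 CPM in the WT frontal cortex and at 185.8, 211 and 182 CPM in the WT hippocampus. Its enrichment over the frontal cortex (17.3-fold) was larger than over the hippocampus (7.93-fold), and the direct difference between the last 2 regions was −1.13 ± 0.112 (edgeR adjusted p = 5.61e-05). Adcy5 (chromosome 16, 35154877 to 35305738, plus strand), the main adenylyl cyclase of the striatum, was at 2036, 1752 and 1539.9 CPM in the WT striatum, at 195, 182 and 203 CPM in the WT frontal cortex and at 138, 148 and 129 CPM in the WT hippocampus. Here the hippocampus was lowest, 12.9-fold under the striatum, against 9.19-fold for the frontal cortex. Gnal (chromosome 18, 67088216 to 67226792, plus strand), the alpha subunit Golf, was at 1095, 1027 and 1028 CPM in the WT striatum, at 251, 255 and 261 CPM in the WT frontal cortex and at 230.5, 191 and 199.99 CPM in the WT hippocampus. With 4.11-fold and 5.09-fold, its enrichment was well below that of its partners Gng7 and Adcy5. Exons of Gnal overlap exons of Mppe1 on the other strand, and exons of Ppp1r1b overlap those of 1700003D09Rik, and the strand setting of the counting is not given in the sources used here. The overlapping genes held at most 369 and 223 counts in any library, and Gm20696, which shares exons with Foxp1 on the same strand, at most 6. Reads that fit more than 1 gene were counted for none, 476826 to 666767 a library in all. The counts of the overlapping genes therefore do not bound what the members lost to overlap.

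Of the genes that end or dampen the signal, Rgs9 had the largest regional difference of the 9 and the lowest level outside the striatum. The gene lies on chromosome 11, 109225355 to 109298129, minus strand. It was at 484, 470 and 519 CPM in the WT striatum, against 7.18 to 7.69 CPM in the WT frontal cortex and 7.19 to 8.90 CPM in the WT hippocampus. Frontal cortex and hippocampus differed by −0.11 ± 0.095 (edgeR adjusted p = 0.414), and by −0.21 to −0.048 with each library left out in turn. Pde10a (chromosome 17, 8525372 to 8986648, plus strand), a phosphodiesterase of projection neurons, was at 2322, 2334 and 2094 CPM in the WT striatum, at 75.5, 72.6 and 68.4 CPM in the WT frontal cortex and at 93.5, 97.1 and 73.9 CPM in the WT hippocampus. That is 31.2-fold and 25.6-fold higher in the striatum. Rasd2 (chromosome 8, 75213944 to 75224113, plus strand) was at 1225, 1105 and 864 CPM in the WT striatum, at 119, 108 and 99.5 CPM in the WT frontal cortex and at 90.6, 82.9 and 83.5 CPM in the WT hippocampus, a difference of 3.29 ± 0.134 and 3.64 ± 0.136.

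Each of the transcription factors had the smallest enrichment of the 9 genes in 1 of the comparisons, Foxp1 over the frontal cortex and Bcl11b over the hippocampus. Bcl11b (chromosome 12, 107910403 to 108003602, minus strand) was at 509, 478 and 460 CPM in the WT striatum, at 79.1, 83.1 and 92.1 CPM in the WT frontal cortex and at 226, 223 and 187 CPM in the WT hippocampus. Foxp1 (chromosome 6, 98925338 to 99522721, minus strand) was at 528, 509 and 502 CPM in the WT striatum, at 162, 166 and 159.9 CPM in the WT frontal cortex and at 89.5, 106.8 and 85.1 CPM in the WT hippocampus. Between frontal cortex and hippocampus the genes went opposite ways, with Bcl11b lower in the frontal cortex (−1.32 ± 0.096, edgeR adjusted p = 7.58e-06) and Foxp1 higher (0.80 ± 0.088, edgeR adjusted p = 0.000111).

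In all, 5 of the 9 genes differed between frontal cortex and hippocampus in WT mice, where 29.8% of all genes did: Adcy5, Gnal and Foxp1 were higher in the frontal cortex and Gng7 and Bcl11b lower. In KO mice 8 of 9 differed, where 41.5% of all genes did, and Rgs9 was the one that did not. The Gnal call in WT mice was lost when WT frontal cortex replicate 1, 2 or 3 or WT hippocampus replicate 2 or 3 was left out (edgeR adjusted p from 0.0533 to 0.0867). Rasd2, at 0.35 ± 0.124 and adjusted p = 0.0589, was called with the animal as a block (edgeR adjusted p = 0.0405) or the replicate number (edgeR adjusted p = 0.0327). A fit of all 18 libraries (edgeR adjusted p = 0.0217) and DESeq2 (adjusted p = 0.0379) called Rasd2 as well. Ppp1r1b was called without WT hippocampus replicate 1 (0.40, edgeR adjusted p = 0.0223), and Pde10a without WT hippocampus replicate 3 (−0.41, edgeR adjusted p = 0.0113). Pde10a was also called by DESeq2 (−0.30, adjusted p = 0.0308) and with all 18 libraries (−0.29, edgeR adjusted p = 0.0228).

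**Figure D2:**
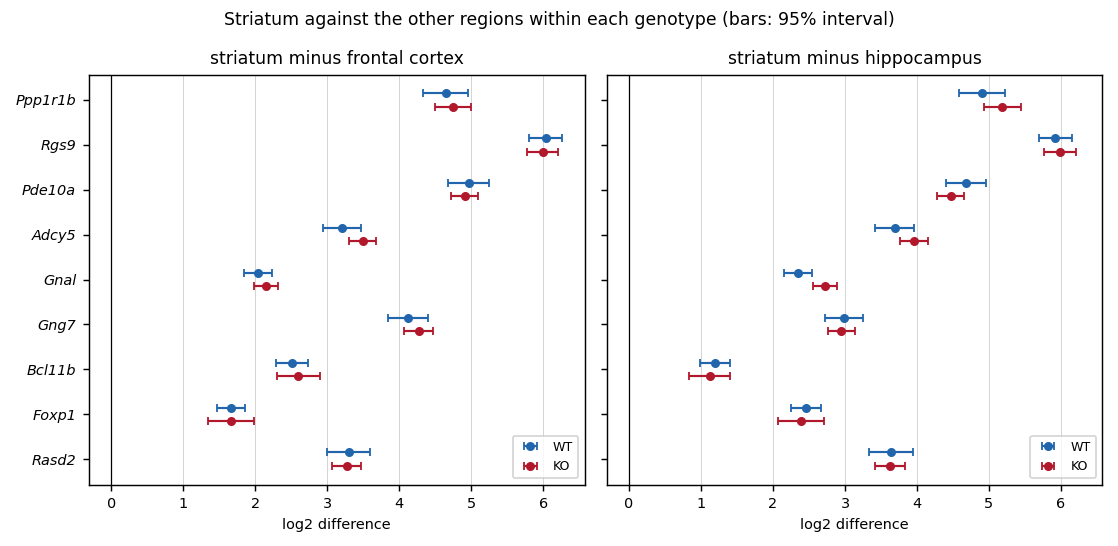
Log2 difference between the striatum and the frontal cortex (left) or the hippocampus (right) for each gene in WT (blue) and KO (red) mice, with 95% intervals of the edgeR fit. Every interval lies above 0, with the lowest bound at 0.84 (Bcl11b in KO, over the hippocampus) and the highest at 6.26 (Rgs9 in WT, over the frontal cortex).

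Levels of different genes were compared per kilobase of exon. Ppp1r1b had the highest striatal level, 797 ± 73.9 CPM per kb (SD, n = 3) in WT mice, followed by Gng7 (403 ± 56.8), Rasd2 (335 ± 57.9), Adcy5 (247 ± 34.6), Pde10a (175 ± 10.5), Gnal (94.0 ± 3.52), Rgs9 (76.8 ± 3.94), Bcl11b (59.5 ± 3.09) and Foxp1 (37.3 ± 1.00). The libraries of Gng7 and Rasd2, and those of Rasd2 and Adcy5, overlapped, and no other neighbours in this order did. Per kilobase of all exons the order was the same in KO mice, where the libraries of Gng7 and Rasd2 and of Rgs9 and Bcl11b overlapped, whereas by the longest transcript Pde10a came before Adcy5 in WT and after it in KO mice. Both other regions had another order: Rasd2 led in the WT frontal cortex (34.2 ± 3.03 CPM per kb), with libraries that overlapped those of Ppp1r1b, and Gng7 led in the WT hippocampus (51.0 ± 4.24), apart from the rest. By the longest transcript in place of all exons, Ppp1r1b (46.8 CPM per kb) and Gnal (44.6) came before Rasd2 (38.7) in the WT frontal cortex. Rgs9 came last in both regions, at 1.18 ± 0.0452 and 1.27 ± 0.137 CPM per kb. Read per length, the level of Ppp1r1b was 21.4 times that of Foxp1 in the WT striatum.

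**Figure D3:**
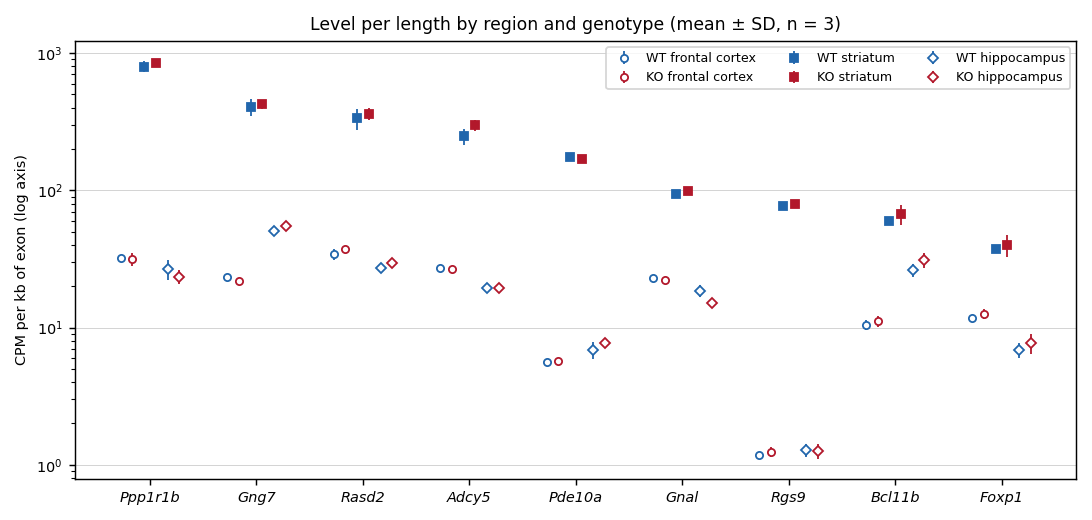
Level per length of the 9 genes in CPM per kb of exon (log axis), as mean ± SD of 3 libraries for each region and genotype, in the order of the WT striatum. Filled squares of the striatum fall from 797 for Ppp1r1b to 37.3 for Foxp1, and open symbols of the other regions are lower and in another order.

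The question put to these genes here is whether loss of Pcm1 changed their levels. None of the 9 passed the test between KO and WT in any region (edgeR, 17545 genes), and DESeq2 also called none. Among all genes, edgeR called 5 in the striatum (0.0285%), 3 in the hippocampus (0.0171%) and 306 in the frontal cortex (1.74%), while DESeq2 called 2.78%, 1.21% and 3.92%. These counts depended on the settings. In the striatum edgeR called 505 genes with a term for the libraries with Y-linked counts, 65 with no filter on low counts and 54 in a fit of all 18 libraries, and such a fit called 205 for the hippocampus. In the frontal cortex the count was 11 without KO frontal cortex replicate 1, 825 without WT frontal cortex replicate 3, 29 with lane as a term and 1 without the libraries with Y-linked counts. At an unadjusted p under 0.05, edgeR passed Adcy5 in the striatum (13.5% of all genes passed), Gnal in the hippocampus (9.89%) and 0 members in the frontal cortex (15.3%), and DESeq2 passed 1, 1 and 0 members. A miss does not show equal levels, and the 95% intervals give the sizes these libraries leave possible: over all 9 genes, from −14.4% to 45.7% for the striatum, −31.3% to 39.8% for the hippocampus and −13.6% to 23.6% for the frontal cortex.

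In the striatum, where these genes are high, 8 of 9 log2 differences were above 0, with a median of 0.089 beside −0.0023 over all genes. Adcy5 had the largest: KO libraries at 2289, 1936 and 2212 CPM against WT libraries at 2036, 1752 and 1539.9 CPM, or 0.27 ± 0.116 (95% interval 0.0073 to 0.54, unadjusted p = 0.0453 and adjusted p = 0.361 by edgeR). The groups overlapped, since KO replicate 2 was below WT replicate 1. Without WT striatum replicate 3 the difference was 0.18, and over all the alternatives the adjusted p of Adcy5 ran from 0.075 to 0.735. Bcl11b followed with 0.17 ± 0.117 (edgeR adjusted p = 0.567), from KO libraries at 644, 466 and 518 CPM. KO replicates 1 and 3 lay above all 3 WT libraries and KO replicate 2 did not, and without KO replicate 1 the difference was 0.031.

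The other 7 genes differed by less between the genotypes. Rasd2 was at 1192, 1022 and 1229 CPM in the KO striatum (0.11 ± 0.134) and Foxp1 at 655, 463 and 532 CPM (0.10 ± 0.118). Ppp1r1b was at 2523, 2361 and 2550 CPM (0.089 ± 0.088), a difference of 0.17 without WT replicate 1 and 0.050 without WT replicate 2. In all of these genes the WT and KO libraries overlapped. Gng7, at 1639, 1464 and 1715 CPM, differed by 0.077 ± 0.116. Gnal, at 1154, 1055 and 1101 CPM, differed by 0.074 ± 0.071. Rgs9, at 507, 513 and 494 CPM, differed by 0.042 ± 0.067. Pde10a alone of the 9 had a value below 0, −0.042 ± 0.079, with KO libraries at 2275, 2071 and 2198 CPM. Its 95% interval ran from −0.22 to 0.14. Adjusted p-values of these 7 genes by edgeR lay between 0.699 and 0.860.

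**Figure D4:**
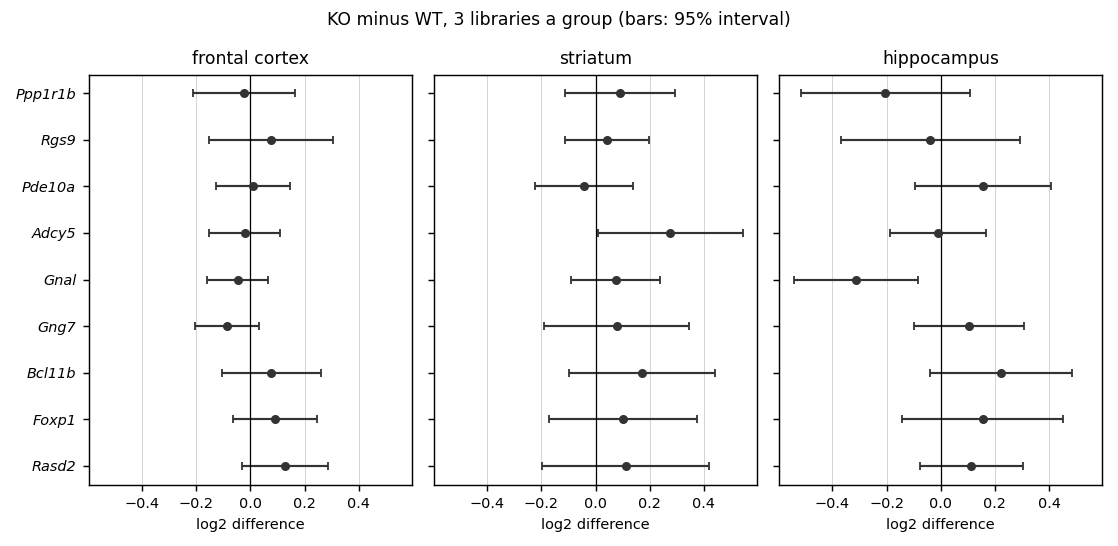
Log2 difference between KO and WT for each gene in the 3 regions, with 95% intervals of the edgeR fit on 3 libraries a group. In the striatum 8 of 9 points lie right of 0 and only the interval of Adcy5 (0.0073 to 0.54) leaves it out, as does that of Gnal (−0.54 to −0.084) in the hippocampus.

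Certain striatal libraries were low for several of the genes at once. WT replicate 3, the library with choroid plexus markers, was the lowest WT library for 6 of the 9 genes and the highest for Rgs9, and KO replicate 2 was the lowest KO library for 8 genes and again the highest for Rgs9. Both hold Y-linked counts. Over all genes, these libraries were the lowest of their group for 37.1% and 35.8%. Deviations from the group means followed one another in the 6 striatal libraries: Pearson r was above 0 in all 28 pairs of genes without Rgs9, up to 0.996 for Gng7 and Rasd2 and 0.985 for Bcl11b and Foxp1, and below 0 in all 8 pairs with Rgs9. These correlations describe 6 libraries of 1 tissue, with 2 groups of 3, and the median over all pairs was 0.68 in the striatum, 0.26 in the hippocampus and 0.035 in the frontal cortex. The pairs share genes and are not independent, and pairs of other genes were not computed. Without WT striatum replicate 3, the differences of Gng7 and Rasd2 were −0.035 and −0.022. Without the library with Y-linked counts in each group, an alternative chosen after the values were seen, Adcy5 was at 0.25, Bcl11b at 0.24 and Foxp1 at 0.19, and none was called.

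**Figure D5:**
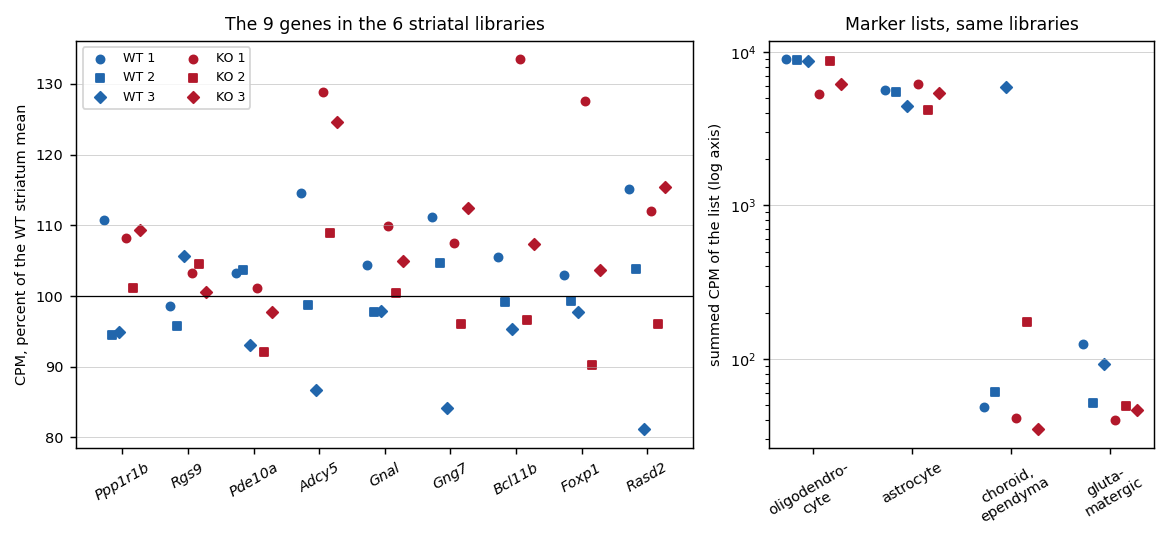
Left, CPM of each gene in the 6 striatal libraries as percent of the WT mean (WT blue, KO red, symbols by replicate). Right, summed CPM (log axis) of 4 marker lists in the same libraries. WT replicate 3 is low for 6 genes and has 5896 CPM of choroid plexus and ependyma markers, and the KO libraries have 40.2 to 49.1 CPM of glutamatergic markers against 51.8 to 125 in WT.

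Marker lists were summed in the same striatal libraries, where no marker passed the test between genotypes, and the sums themselves were not tested. Sums of WT and KO libraries overlapped for interneurons, pallidal and septal neurons, astrocytes, microglia, endothelial cells and choroid plexus. The 6 oligodendrocyte lineage markers summed to 5272, 8655 and 6173 CPM in the KO libraries against 8723 to 8932 CPM in WT. The 8 glutamatergic markers had a median log2 difference of −1.11, and all 8 values were below 0. The 8 direct pathway markers summed to 1307 to 1469 CPM in KO against 859 to 1095 CPM in WT, and the 7 indirect pathway markers tested to 2886 to 3101 against 2396 to 2671 CPM. The 9 genes summed to 11350 to 12878 CPM in KO and 10502 to 12478 CPM in WT. Of single genes, 19.0% had groups that did not overlap in the striatum. The part of tissue composition in the small differences of the 9 genes was not tested. The WT striatum was sequenced on lane 5 and the KO striatum on lanes 3 and 4, so the effects of lane and of genotype cannot be told apart there. When lane was added to a model of the 18 libraries, Adcy5 was at 0.28 and Pde10a at −0.23, and none of the 9 was called.

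In the frontal cortex, where the genes are low, differences between genotypes lay between −0.088 for Gng7 and 0.13 for Rasd2. Rasd2 was at 123, 120 and 115 CPM in KO and 119, 108 and 99.5 CPM in WT libraries (0.13 ± 0.070, edgeR adjusted p = 0.434). This difference was 0.069 without WT frontal cortex replicate 3 and 0.20 without WT frontal cortex replicate 1. Its groups overlapped, as those of all 9 genes did. The SE of the 9 differences ran from 0.050 to 0.101. Oligodendrocyte lineage markers summed to 1631 to 1724 CPM in KO and 1825 to 2451 CPM in WT frontal cortex, and glutamatergic markers to 3184 to 3369 and 2777 to 2862 CPM. Direct pathway markers summed to 162 to 170.4 CPM in KO and 126 to 132 CPM in WT, indirect pathway markers to 152 to 169 and 114 to 126 CPM, interneuron markers to 416 to 475 and 295 to 377 CPM, and microglia markers to 335 to 381 and 386 to 505 CPM. The sums of these 6 lists did not overlap between the genotypes, those of astrocytes, endothelial cells, pallidal and septal neurons and choroid plexus did, and their part in the values of the 9 genes was not tested. Of single genes, 21.3% had groups that did not overlap in this region.

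In the hippocampus, Gnal was at 154, 179 and 174 CPM in KO against 230.5, 191 and 199.99 CPM in WT libraries, a difference of −0.31 ± 0.099 (95% interval −0.54 to −0.084, unadjusted p = 0.0136 and adjusted p = 0.418 by edgeR). It was the only member in any region whose groups did not overlap, where 17.1% of all genes did not overlap in that region, 19.0% in the striatum and 21.3% in the frontal cortex. The difference stayed below 0 in all 16 alternatives, from −0.41 to −0.23, with adjusted p from 0.0638 to 0.919. The alternatives refit the same libraries, and since the groups do not overlap, leaving out 1 could hardly change the sign. Bcl11b was at 256, 279 and 217 CPM against 226, 223 and 187 CPM (0.22 ± 0.113), and its groups overlapped (edgeR adjusted p = 0.558). Without WT hippocampus replicate 3 the difference of Bcl11b was 0.13, and without KO hippocampus replicate 2 it was 0.15. The remaining 7 genes differed by −0.20 (Ppp1r1b) to 0.16 (Pde10a and Foxp1), and these limits rest on single libraries. Ppp1r1b was at −0.060 without WT replicate 1 and −0.32 without KO replicate 3, Pde10a at 0.035 without WT replicate 3, and Foxp1 at 0.021 without KO replicate 2 and 0.25 without WT replicate 2. Choroid plexus and ependyma markers ran from 224 to 4082 CPM in KO and from 2118 to 6180 CPM in WT hippocampus, and oligodendrocyte lineage markers from 3525 to 5684 and from 4613 to 9267 CPM. Sums that did not overlap were those of direct pathway markers, 81.9 to 102 CPM in KO and 75.3 to 79.5 CPM in WT, and of glutamatergic markers, 2825 to 3473 CPM in KO and 2251 to 2825 CPM in WT, where the lowest KO library lay above the highest WT library by less than 1 CPM. The part of these lists in the values of Gnal, Bcl11b and the other genes was not tested.

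Whether the genotype difference of a gene was another in the striatum than in the other regions was tested directly, in a fit of all 18 libraries. None of the 9 genes passed, and 1 of all genes did (0.0057%). Adcy5 (0.28 ± 0.115, unadjusted p = 0.0282 and adjusted p = 0.990) and Gnal (0.24 ± 0.091, unadjusted p = 0.0184 and adjusted p = 0.896) had unadjusted p-values under 0.05 by edgeR, as did 4.61% of all genes. For Gnal the contrast sets the lower hippocampal value beside the striatal one of 0.074. The remaining 7 genes were between −0.14 for Pde10a and 0.19 for Ppp1r1b. These values rest on single libraries: Adcy5 was at 0.18 without WT striatum replicate 3, Pde10a at −0.085 without WT hippocampus replicate 3 and Ppp1r1b at 0.12 without WT hippocampus replicate 1. DESeq2 called none as well (0.103% of all genes), with 2 members under an unadjusted p of 0.05.

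Relatives of the 9 genes were followed as 9 lists of 100 genes, of which 98 were tested. Between WT striatum and WT frontal cortex, 41 were higher and 31 lower, beside 3618 (20.6%) and 3671 of all 17545 genes. Among 8 other G protein alpha subunits 0 were higher and 4 lower, and Gnas, the Gs alpha subunit that Golf stands in for, differed by −1.30 ± 0.096 (edgeR adjusted p = 3.21e-06). In CPM per kb, Gnas was at 11.3 ± 1.10 in the WT striatum and 27.7 ± 1.37 in the WT frontal cortex, while Gnal was at 94.0 ± 3.52 and 22.9 ± 0.414. Overlaps of Gnas with other genes, and its level by the longest transcript, were not examined. Gnao1 had the largest value of that list, 0.22, and was not called. Among 8 other adenylyl cyclases 1 was higher (Adcy3, 0.58 ± 0.113) and 4 lower, and Adcy1, a calmodulin-stimulated cyclase of the cortex, had the lowest value, −1.98 ± 0.115. Of 14 beta and gamma subunits 5 were higher and 6 lower. Gng2 was lowest with −1.86 ± 0.130, and Gnb3 highest with 2.18 ± 1.30, which rests on at most 20 counts a library.

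Among phosphodiesterases, 8 of 14 tested were higher and 5 lower. Pde1b, which calcium activates, was the highest with 3.26 ± 0.097 and Pde1a the lowest with −2.78 ± 0.218. Of the 6 protein kinase A subunits, Prkar2b was higher (1.13 ± 0.090), 3 were lower, and Prkar1b had the lowest value (−1.61 ± 0.102). The list of kinases, phosphatases and relatives of DARPP-32 had 6 of 15 higher and 3 lower, from −0.31 ± 0.081 for Cdk5r1, an activator of Cdk5, to 2.05 ± 0.100 for Arpp21, another phosphoprotein that cAMP regulates. In the list around Rgs9, 9 of 16 were higher and 3 lower. Rgs9bp, the anchor of Rgs9 in photoreceptors, had the lowest value on at most 11 counts a library in these regions. Of 5 dopamine receptors 3 were higher, with Drd2 at 7.63 ± 0.123, and Drd4 had −0.49 ± 0.461. Of 12 transcription factors 8 were higher and 3 lower. Isl1, of direct pathway neurons, had 448 to 544 counts in each WT striatum library and at most 1 in the WT frontal cortex, and Mef2c was lowest (−2.35 ± 0.102).

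Between genotypes, 2 of the 98 relatives were called, both in the frontal cortex, where 1.74% of all genes were, so the count is near the background. Drd1, the D1 receptor, was higher in KO (0.68 ± 0.099, edgeR adjusted p = 0.0177) and Meis2, a homeobox factor of striatal precursors, was lower (−0.28 ± 0.054, edgeR adjusted p = 0.0414). Both had groups that did not overlap, as 21.3% of all genes there. Drd1 was called in 10 of 16 alternatives, and not without WT replicate 2 or KO replicate 1, 2 or 3 (edgeR adjusted p from 0.0722 to 0.101), with lane as a term (0.0719) or without the libraries with Y-linked counts (0.232). Meis2 was called in 7 of 16, and of the 6 fits without 1 library only in that without WT replicate 3. In the striatum Drd1 differed by 0.61 ± 0.107 and was not called (edgeR adjusted p = 0.123), and 4 of the 5 dopamine receptors were higher at an unadjusted p under 0.05, which 13.5% of all genes there passed in either direction. None of the 98 was called in the striatum or the hippocampus, where an unadjusted p under 0.05 by edgeR was reached by 15 higher and 6 lower in the former and by 10 higher and 10 lower in the latter, beside 13.5% and 9.89% of all genes. Of the 63 markers tested in 10 lists, Chrm4, Penk, Slc17a7 and Sst were called in the frontal cortex beside Drd1, all higher in KO, where of all 17545 genes 247 were called higher and 59 lower (1.74%). They were called in 7 (Slc17a7 and Sst) to 14 (Penk) of 16 alternatives.

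Which genes follow Ppp1r1b was read over the 18 libraries, among 12861 genes that are not members and average at least 1 on the log2 CPM scale. The closest 5 were Pde1b (Pearson r = 0.998 of log2 CPM), Adora2a (0.998), the adenosine receptor of indirect pathway neurons, Ric8b (0.997), a chaperone of Golf, Rarb (0.996), a retinoic acid receptor, and Rasgrp2 (0.995), an exchange factor for Rap proteins. These values mostly describe the gap between the striatum and the other regions, since the libraries fall into separate clusters by region. Among the members, r to Ppp1r1b was 0.996 for Adcy5, Rasd2 and Rgs9, 0.992 for Gnal, 0.989 for Pde10a, 0.956 for Foxp1, 0.935 for Gng7 and 0.791 for Bcl11b. Gng7 and Bcl11b, the lowest of these, were the members called higher in the hippocampus than in the frontal cortex in WT mice. None of the 5 followers was called between genotypes in any region.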

How the data were processed

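Tissue of adult WT and Pcm1-/- mice was sequenced from poly(A) RNA with a stranded kit on an Illumina HiSeq instrument. The authors trimmed the reads (Trim Galore with cutadapt, at least 20 nt kept), aligned them with STAR to GRCm38 (release 73), kept reads with a single position, counted them with HTSeq and deposited raw counts, 1 library per file. Tool versions and the strand setting are not given in the sources used here. Rows that name no gene held 10.8% to 13.2% of each file and were left out. Symbols, positions and lengths came from GENCODE M21 of the same build, promoter windows from RefSeq.

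Genes with at least 10 counts in any library were tested with edgeR 4.0.16 (R 4.3.3; TMM factors, quasi-likelihood test, Benjamini-Hochberg adjustment over 17545 genes, called at an adjusted p under 0.05). DESeq2 1.42.0 was the other test and limma 3.58.1 gave a fit with correlated libraries of 1 animal. Genotypes were compared within a region, and regions within a genotype. A fold is 2 to the power of the edgeR log2 difference, and level per length divides CPM by the union of exons. Log2 CPM used a prior count of 2. The fits were tested on simulated data. The regions of a genotype come from the same animals, by the animal numbers in the file names, and libraries of 1 animal correlated between regions, after removal of group means, at 0.110 to 0.318 in KO and 0.0801 to 0.386 in WT mice. Libraries of a group differed by more than sampling noise in all 18 pairs. The members, the lists and the rule for naming genes were chosen with earlier results of these data known. The rule names all members, Pcm1, relatives called between genotypes, the relative with the largest and the smallest difference between WT striatum and WT frontal cortex in each list, the 5 genes most like Ppp1r1b, and markers that were called; 1 gene that the rule names is not reported here. Alternatives were DESeq2, its size factors, filterByExpr, no filter, all 18 libraries in 1 fit, lane, replicate number and animal as blocks, each library left out, and, added after the data were seen, the libraries with Y-linked counts left out or as a term. Other values came from pandas 2.3.3 under Python 3.11.15, and figures from matplotlib 3.10.9.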

Additional observations from a re-analysis of the deposited data

How the results depend on the processing

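The counts of called members were the same under every alternative in the comparisons of genotypes, of the striatum with either region, of KO frontal cortex with KO hippocampus (8 of 9) and of the interaction, and 4 to 7 of 9 between WT frontal cortex and WT hippocampus. Same-numbered libraries of WT and KO deviated together at 0.043 to 0.26 in the frontal cortex, −0.27 to 0.18 in the striatum and 0.096 to 0.51 in the hippocampus, so the numbers alone do not pair the samples. In the striatum the WT replicate numbers belong to other animals than in the other regions. The pairs of animals that share a number in those regions were at 0.063, 0.39 and 0.23 in the striatum. With the replicate number as a block, 0 members were called between genotypes in each region and Adcy5 in the striatum was at 0.28; the animal as a block changed no call but that of Rasd2 between WT frontal cortex and WT hippocampus. All genes called by DESeq2 numbered 687 in the frontal cortex, 488 in the striatum, 212 in the hippocampus and 18 for the interaction, against 306, 5, 3 and 1 by edgeR.

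Small values that were not called changed sign, and the cause was not tested. With lane within the region, Bcl11b in the frontal cortex was at −0.00094 and Adcy5 in the hippocampus at 0.026; with all 18 libraries, Adcy5 in the hippocampus was at 0.0070, and with lane added Rgs9 in the striatum at −0.035. Rgs9 between KO frontal cortex and KO hippocampus was at 0.00075 with filterByExpr. For the interaction, lane gave −0.075 for Rgs9, −0.00606 for Gng7 and −0.00358 for Bcl11b, correlated animals −0.0031 for Bcl11b, and leaving out the libraries with Y-linked counts 0.11 for Foxp1. With each library left out in turn, log2 differences between genotypes ranged in the frontal cortex from −0.11 to 0.039 for Ppp1r1b, −0.027 to 0.043 for Pde10a and −0.056 to 0.014 for Adcy5, in the striatum from −0.035 to 0.16 for Gng7, −0.041 to 0.21 for Foxp1 and −0.022 to 0.22 for Rasd2, and in the hippocampus from −0.13 to 0.030 for Rgs9 and −0.065 to 0.031 for Adcy5. Differences that kept their sign ranged in the frontal cortex from 0.0028 to 0.12 for Rgs9, 0.0091 to 0.14 for Bcl11b, 0.014 to 0.14 for Foxp1, −0.12 to −0.064 for Gng7 and −0.066 to −0.027 for Gnal, in the striatum from 0.031 to 0.27 for Bcl11b, 0.18 to 0.38 for Adcy5, 0.012 to 0.081 for Rgs9, 0.042 to 0.11 for Gnal and −0.094 to −0.0085 for Pde10a, and in the hippocampus from 0.046 to 0.17 for Gng7 and 0.034 to 0.15 for Rasd2. Rgs9 between KO frontal cortex and KO hippocampus ranged from −0.080 to 0.095. The interaction ranged from −0.029 to 0.056 for Rgs9, −0.055 to 0.14 for Gng7, −0.13 to 0.10 for Bcl11b, −0.18 to 0.073 for Foxp1 and −0.15 to 0.089 for Rasd2. By the longest transcript in place of all exons, the highest level per length in the WT striatum was 19.6 times the lowest, which was then that of Bcl11b. By Spearman rho, 0 of the 5 genes most like Ppp1r1b stayed among the closest 5. Groups of 3 are too small for a test of outliers.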
